A study of Mus musculus with 6 samples.

Results

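Mucus genes are described here in 3 epithelial populations sorted from the mouse lung: the gel-forming mucins Muc5b and Muc5ac, the transmembrane mucins Muc1 and Muc16, and the goblet cell secretion genes Agr2, Clca1 and Tff2. These 7 genes were chosen by name as a group of known function and were all found among the 22239 genes measured by RNA sequencing. The populations were bronchioalveolar stem cells (BASC), which carry both reporters of the study (marker profile CCSP-mCherry+/SPC-YFP+), alveolar type 2 cells (AT2, SPC-YFP+) and Club cells (CCSP-mCherry+), each from 8 week old mice and with 2 samples per population. CCSP is the Club cell secretory protein, encoded by Scgb1a1, and SPC is surfactant protein C, encoded by Sftpc. Cells were sorted on these endogenous reporters from lung homogenates that had been depleted of CD31+ and CD45+ cells, that is, of endothelial and blood cells. No marker for goblet cells is given in the sort, so any CCSP-mCherry+ cell that secretes mucus would have been collected with the Club cells. The labels do not say whether the 2 samples of a population came from different animals, so p-values measure the spread between these samples, which may be technical.

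Airway mucus is a gel built mainly from large secreted mucins that polymerise through disulfide bonds and swell on release. Muc5b is the gel-forming mucin made constitutively by secretory cells of the mouse airway and is required for mucociliary clearance. Muc5ac is low in healthy mouse airways and is strongly induced when Club cells turn into goblet cells during allergic inflammation. Muc1 and Muc16 stay anchored in the apical membrane, where their extracellular parts shield the cell surface and can be shed. Agr2 is a protein disulfide isomerase of the endoplasmic reticulum needed for mucin processing, Clca1 is a secreted metalloprotease-like protein of goblet cells, and Tff2 is a trefoil peptide released together with mucins.

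Values are normalised read counts as deposited by the authors. The even steps of the low values gave the size of 1 read in each sample. Estimated library sizes were between 10118863 and 18205636 reads, and 3 reads, the limit below which a gene is treated here as not detectable, corresponded to a normalised count between 2.29 and 4.02 in a library. These limits cover counting error only. Population differences were tested with limma on log2(normalised count + 1) over the 17721 genes that reached 10 in 2 or more samples, and a gene is called where the Benjamini-Hochberg adjusted p is under 0.05. A fold is the quotient of mean normalised counts, or of reads scaled for depth where estimated reads are given. Log2 fold changes are fitted values with their standard errors (SE), which understate the change of low genes. As a check of the labels, the normalised counts of Sftpc were 290809 and 307458 in the BASC samples, 301267 and 373742 in the AT2 samples and 240 and 224 in the Club samples. Scgb1a1, the gene of the CCSP label, had 43993 and 58791 in the 2 BASC samples, 413 and 302 in the 2 AT2 samples and 751642 and 760675 in the 2 Club samples, so BASC lay far above AT2 cells and well below Club cells.

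Muc5b was the most abundant member by count in Club cells, was low in BASC and was near the detection limit in AT2 cells. The gene (ENSMUSG00000066108) lies on the plus strand of chromosome 7 at 141839070 to 141873084 in mm10. Its normalised counts were 334 and 377 in BASC, 7 and 17 in AT2 cells, and 71552 and 62105 in Club cells, so that the 3 populations did not overlap. Muc5b averaged 355.5 ± 30.4 in BASC and 12 ± 7.07 in AT2 cells (SD, n = 2 each), a 29.6-fold higher level in BASC (log2 fold change 4.89 ± 0.36 SE, limma adjusted p = 0.00266). Without the first or the second BASC sample the call was lost (limma adjusted p = 0.105 and 0.174), with log2 fold changes of 4.98 and 4.80. It was also lost without the first or second Club sample where the genes tested were kept as with all samples (limma adjusted p = 0.231 and 0.235), a setting chosen after seeing the data and called the fixed gene set below. Set against 66828.5 ± 6680 in Club cells (SD, n = 2), the BASC level was 188-fold lower (log2 fold change -7.55 ± 0.36 SE, limma adjusted p = 4.01e-05). AT2 cells were 5569-fold below Club cells (log2 fold change -12.44 ± 0.36 SE, limma adjusted p = 3.82e-06).

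Muc5ac, the inducible gel-forming mucin, followed the same order at a much lower level. It is the direct neighbour of Muc5b (ENSMUSG00000037974, chromosome 7, 141788972 to 141819231, plus strand), with 19.8 kb between the end of one gene and the start of the next. Normalised counts of Muc5ac were 25 and 40 in BASC, 0 and 0 in AT2 cells, and 1370 and 1665 in Club cells. Both BASC samples were thus above the detection limit and both AT2 samples at 0. Against that limit, Muc5ac was at least 11.8-fold higher in BASC than in AT2 cells (fitted log2 fold change 5.03 ± 0.76 SE, limma adjusted p = 0.0444). That call was lost in 11 of 19 alternatives, among them leaving out any 1 of the 6 samples (limma adjusted p between 0.0554 without the first AT2 sample and 0.251 without the second BASC sample), and the log2 fold change was 2.06 with a pseudocount of 10. In BASC it was 46.7-fold lower than in Club cells (log2 fold change -5.53 ± 0.76 SE, limma adjusted p = 0.00476), a call that was lost without the first Club sample (limma adjusted p = 0.0855) or the second (0.108). The AT2 level was at least 552-fold lower than that of Club cells (limma adjusted p = 0.000135).

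The same chromosomal cluster holds 2 further gel-forming mucin genes, and in Club cells both were far below Muc5ac and Muc5b. Muc2, the main mucin of the intestine, had 0 and 5 normalised counts in BASC, 0 and 0 in AT2 cells and 12 and 10 in Club cells. Muc6, a gastric mucin, ranged from 12 to 74 in BASC, from 17 to 109 in AT2 cells and from 79 to 205 in Club cells, so that in BASC its samples overlapped those of Muc5ac and in AT2 cells they were at or above those of Muc5b. Ap2a2 and Tollip, the genes that flank the cluster and make no mucin, were present in every population, with 401 and 560 normalised counts of Ap2a2 in BASC, 561 and 885 in AT2 cells and 835 and 839 in Club cells.

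Muc1 differed from the other 6 genes in being abundant in all 3 populations, with its highest mean in AT2 cells. The gene (ENSMUSG00000042784) lies on the plus strand of chromosome 3 at 89229057 to 89233381. Its normalised counts were 14525 and 14116 in BASC, 17377 and 17601 in AT2 cells, and 9958 and 11728 in Club cells, with no overlap between any pair of populations. BASC averaged 14320.5 ± 289 and AT2 cells 17489 ± 158 (SD, n = 2 each), a log2 difference of -0.29 ± 0.11 SE that was not called (limma adjusted p = 0.314). BASC and Club cells, which averaged 10843 ± 1252 (SD, n = 2), differed by 0.41 ± 0.11 SE on the log2 scale, also without passing the threshold (limma adjusted p = 0.0553). That p fell under the threshold in 7 of 19 alternatives, among them leaving out the second Club sample (log2 difference 0.52, limma adjusted p = 0.0428). AT2 cells were 1.61-fold above Club cells (log2 fold change 0.69 ± 0.11 SE, limma adjusted p = 0.0049, but 0.158 where the prior variance had no trend and 0.0753 without the first Club sample in the fixed gene set), and this was the single called difference among the 7 genes in which Club cells were the lower population.

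Muc16, the largest transmembrane mucin, was by contrast above the detection limit in Club cells only. The gene (ENSMUSG00000109564) is on the minus strand of chromosome 9 at 18495455 to 18674530. Normalised counts were 1 and 0 in BASC, 1 and 1 in AT2 cells, and 2427 and 801 in Club cells. The 2 Club samples differed by a larger ratio than those of any other of the 7 genes, and both stood far above BASC and AT2 cells. An estimated 1 read in BASC against 3714 reads in Club cells gave a 3139-fold lower level in BASC, with an exact 95% counting interval between 563-fold and 124008-fold (limma adjusted p = 0.00158). By the estimated reads, 2 against 3714, AT2 cells were 1916-fold lower than Club cells, with a counting interval between 530-fold and 15828-fold (limma adjusted p = 0.0012). Neither interval covers the gap between the 2 Club samples. No fold is given between BASC and AT2 cells because both were under the limit.

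Clca1, the secreted goblet cell protein, was, after Muc5b, the most abundant by count of the 6 genes that were lower in BASC and AT2 than in Club cells. The gene (ENSMUSG00000028255) lies on the minus strand of chromosome 3 at 145003817 to 145032776. It had 1 and 1 normalised counts in BASC, 1 and 9 in AT2 cells, and 6830 and 10667 in Club cells. BASC and AT2 cells overlapped and were not called apart (log2 difference -1.16 ± 0.94 SE, limma adjusted p = 0.662). In BASC the level was 7841-fold lower than in Club cells by the estimated reads, 2 against 18555, with an exact 95% counting interval between 2170-fold and 64747-fold (limma adjusted p = 0.000333). AT2 cells were 1750-fold lower than Club cells (log2 fold change -10.90 ± 0.94 SE, limma adjusted p = 0.000327), and 1 AT2 sample held nearly all of that AT2 level.

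Tff2 and Agr2 were at 0 in every BASC and AT2 library. Tff2 (ENSMUSG00000024028, chromosome 17, 31141049 to 31144282, minus strand) had 1150 and 1390 normalised counts in Club cells. It was at least 375-fold lower in BASC than in Club cells (limma adjusted p = 0.000997) and at least 462-fold lower in AT2 cells (limma adjusted p = 0.000586). Agr2 (ENSMUSG00000020581, chromosome 12, 35992907 to 36004087, plus strand) had 332 and 309 in Club cells, the lowest count of the 7 genes there. Its level was at least 94.7-fold lower in BASC than in Club cells (limma adjusted p = 0.00295) and at least 117-fold lower in AT2 cells (limma adjusted p = 0.00179). For both genes the depth sets the bound, and a lower level in BASC or AT2 cells was not detectable.

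**Figure D1:**
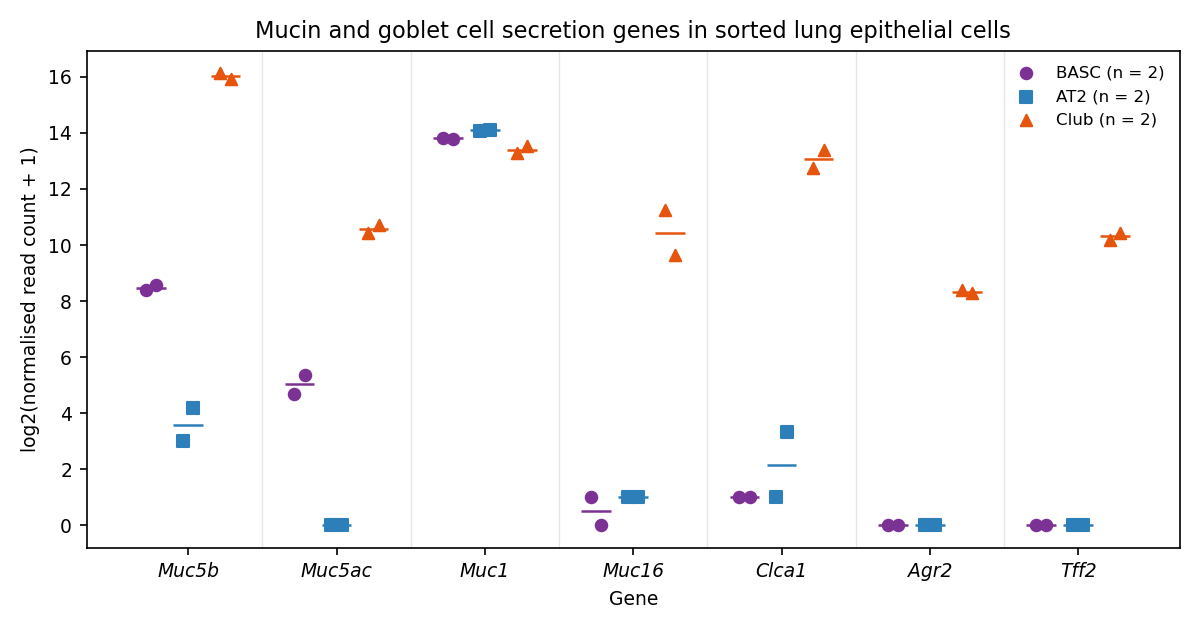
Each point is 1 sample and shows log2(normalised read count + 1) of a gene; the short lines are population means (n = 2 each). Muc1 lies between 9958 and 17601 normalised counts in all 6 samples, Muc5b and Muc5ac step down in BASC and again in AT2 cells, and the other 4 genes stand near 0 outside Club cells.

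Counted over the 7 genes, 2 were called higher in BASC than in AT2 cells, Muc5b and Muc5ac, and 0 were called lower by limma. Across all genes tested in that comparison, 0.553% were called higher in BASC and 0.079% lower. At an unadjusted p under 0.05, 2 of the 7 were higher and 1, Muc1, was lower. Of the 17721 genes tested, 1257 were higher and 1079 lower at that p, and the counts of each list at that p below stand beside these. In BASC against Club cells 0 were called higher and 6 lower, with only Muc1 not called, where 5.77% of all genes were called higher and 5.42% lower. At an unadjusted p under 0.05, 1 of the 7, Muc1, was higher in BASC, beside 2001 of the 17721 genes tested. In AT2 against Club cells 1 was called higher, Muc1, and 6 lower, where 8.42% of all genes were called higher and 9.71% lower. Counts of called genes in each list below stand beside these shares of all genes. Muc16, Agr2, Clca1 and Tff2 passed the filter on low values through the Club samples alone, so these counts are a description of the group. Samples did not overlap, with BASC higher, in 2 of the 7 genes against AT2 cells (18.3% of all genes) and in 1 against Club cells (23.9%), and with BASC lower in 1 (18.9%) and in 6 (30.1%). AT2 and Club samples did not overlap in 1 gene higher in AT2 cells (26% of all genes) and 6 genes lower (32%). In bulk samples such as these, fewer cells of a type and less RNA per cell cannot be told apart.

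**Figure D2:**
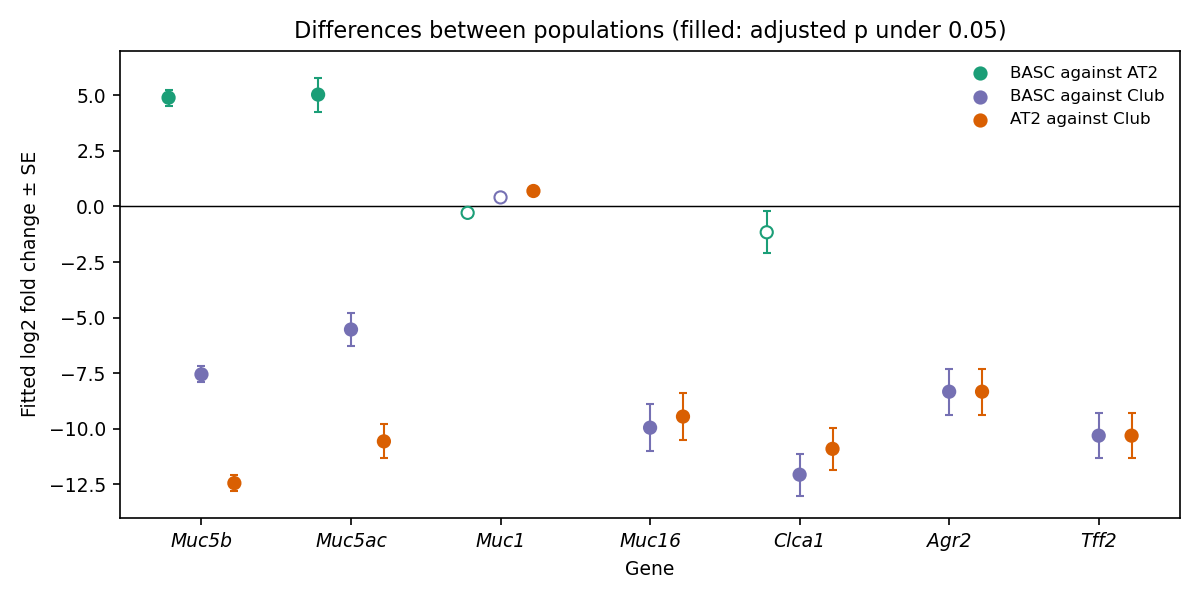
Fitted log2 fold changes (points) with their standard errors (bars) are drawn for each gene in BASC against AT2, BASC against Club and AT2 against Club cells. No point is drawn for Muc16, Agr2 and Tff2 in BASC against AT2 cells, where both populations were under the detection limit. Filled points have a limma adjusted p under 0.05. Muc5b and Muc5ac are the 2 filled points above 0 for BASC against AT2 cells, and Muc1 stays within 0.69 of 0 in every comparison, with a filled point for AT2 against Club cells only.

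Levels were also set per kilobase of exon, since Muc16 and Muc5b have long gene models and Tff2 a short one. On that scale the 7 genes ran in Club cells in the order Muc1, Muc5b, Clca1, Tff2, Agr2, Muc5ac and Muc16, with mean normalised counts per kb of 4622, 4466, 2316, 2175, 248, 141 and 61.3. The first 2 neighbours did not differ beyond their spread: Muc1 had 4245 and 4999 per kb and Muc5b 4782 and 4150. Clca1, with 1808 and 2824 per kb, also overlapped Tff2, with 1969 and 2380. The other neighbours in the order did not overlap. In BASC the order was led by Muc1 at 6191 and 6017 per kb, far above Muc5b at 22.3 and 25.2 and Muc5ac at 2.33 and 3.72. AT2 cells held 7407 and 7503 per kb of Muc1 and 0.468 and 1.14 per kb of Muc5b.

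Other mucins filled the space between Muc1 and Muc5b in BASC. Muc4, a transmembrane mucin that binds ErbB2, had 8340 and 8371 normalised counts in BASC, 4303 and 2526 in AT2 cells and 12066 and 10871 in Club cells, or 709 and 712 per kb in BASC. BASC lay between the other populations and was not called apart from AT2 cells (log2 difference 1.34, limma adjusted p = 0.0635), whereas AT2 cells were 3.36-fold lower than Club cells (limma adjusted p = 0.00196, but 0.108 and 0.0907 without the first or second Club sample in the fixed gene set). Muc20, a small transmembrane mucin, had 573 and 533 in BASC, 342 and 201 in AT2 cells and 2147 and 1593 in Club cells, 3.38-fold lower in BASC than in Club cells (limma adjusted p = 0.0104). Leaving out the first or second BASC sample or the first Club sample took the call of Muc20 away (limma adjusted p = 0.0702, 0.084 and 0.0573; without either Club sample in the fixed gene set, 0.2 and 0.126). Muc4 and Muc20 share 627 exon bases on opposite strands and the strand setting of the counting is not given in the sources used here, so the division of reads between them is uncertain. Of the 8 other mucins and sialomucins tested, Muc4 and Muc20 included, 0 were called between BASC and AT2 cells by limma, with 3 higher at an unadjusted p under 0.05. Against Club cells 1 of them was called lower in BASC, beside 5.42% of all genes. Their median log2 fold changes were 0.72 for BASC against AT2 and -0.92 for BASC against Club cells, where the medians of all genes were 0.00 and -0.10.

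**Figure D3:**
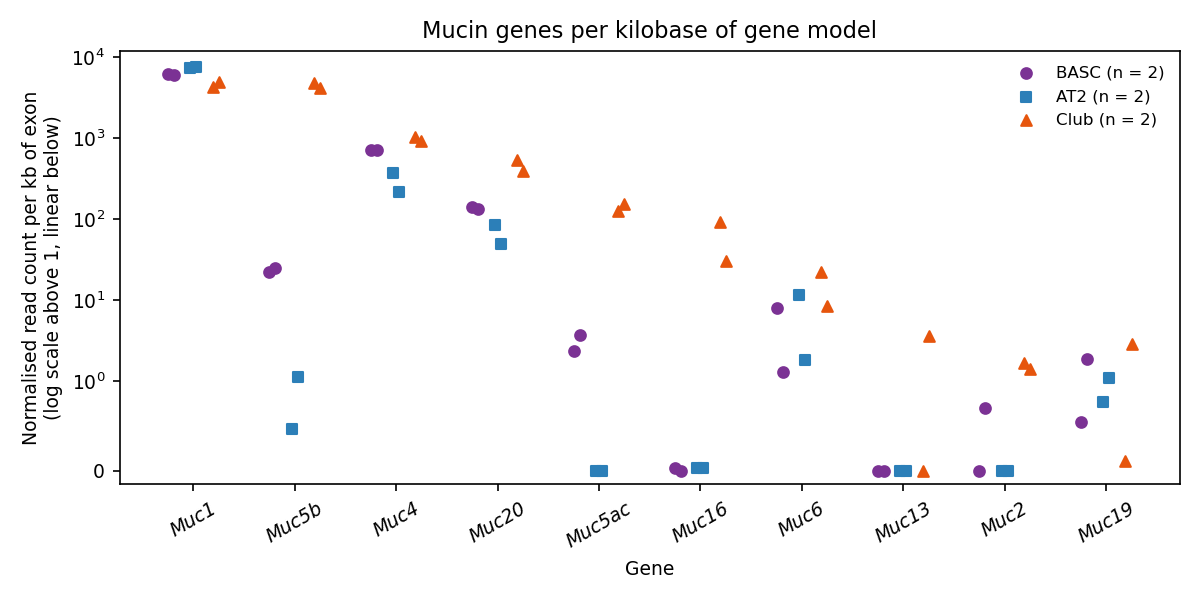
Normalised read counts per kb of exon are shown for 10 mucin genes, 1 point per sample, on an axis that is logarithmic above 1 and linear below. Muc1 is the highest mucin in BASC at 6191 and 6017 per kb and in AT2 cells at 7407 and 7503 per kb, while Muc5b reaches the Muc1 level in Club cells only.

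The ratio of the 2 gel-forming mucins within a library was also read. For every 100 Muc5b reads there were 7.49 and 10.6 Muc5ac reads in the BASC libraries and 1.91 and 2.68 in the Club libraries. The exact 95% counting intervals of the BASC ratios, 4.52 to 12.2 and 7.64 to 14.6, lay above those of the Club ratios, 1.82 to 2.01 and 2.55 to 2.82, but the 2 Club intervals did not overlap each other either, so libraries differed by more than counting error within a population. In AT2 libraries there were 0 Muc5ac reads beside an estimated 9 and 16 Muc5b reads, which allows ratios of up to 50.7 and 25.9. With 2 samples against 2, an exact two-sided permutation test cannot go below p = 0.333, which it gave here for BASC against Club cells, and a difference in this ratio between the populations is not shown.

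Muc5b was also set against Scgb1a1, the Club cell secretory protein that BASC and Club cells share by their reporter. For every 1000 Scgb1a1 reads there were 7.59 and 6.41 Muc5b reads in BASC, against 95.2 and 81.6 in Club cells. Muc5ac gave 0.568 and 0.68 reads per 1000 Scgb1a1 reads in BASC, against 1.82 and 2.19 in Club cells. For Clca1 the ratios were 0.0227 and 0.017 in BASC and 9.09 and 14 in Club cells. In AT2 libraries the ratios were 16.9 and 56.3 for Muc5b, 0 and 0 for Muc5ac and 2.42 and 29.8 for Clca1. Those of Muc5b and Clca1 were thus higher than in BASC. They rest on few reads, an estimated 9 and 16 of Muc5b and 1 and 8 of Clca1 beside 541 and 282 of Scgb1a1. Each of the 3 ratios was lower in both BASC libraries than in both Club libraries (exact two-sided permutation p = 0.333 each, the smallest that this design allows). Counted reads of Muc5b, Muc5ac and Clca1 were thus fewer per Scgb1a1 read in BASC than in Club cells, and by unequal factors. These genes do not stand for every mucin, as both BASC samples held more Muc1 and less Scgb1a1 than either Club sample.

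A further description sets the BASC mean, less the AT2 mean, as a percentage of the Club mean less the AT2 mean. Muc5b reached 0.514% and Muc5ac 2.14% of the Club level in BASC. Agr2 and Tff2 were at 0, which allows up to 1.06% and 0.266%, and Clca1 and Muc16 were at -0.0457% and -0.031%, values that cannot be told from 0 because BASC and AT2 cells overlapped or were both under the detection limit. Scgb1a1 itself stood at 6.75%, Cyp2f2, a cytochrome P450 of Club cells, at 12.9%, and Scgb3a2, a secretoglobin, at 1.41%. Over 305 genes with a Club mean of at least 300 that were called lower in AT2 than in Club cells by at least 3 on the log2 scale, the median was 6.16% with quartiles of 1.77% and 15.6%. Among these genes 16.1% lay below Muc5b and 29.8% below Muc5ac. Muc5b, Muc5ac, Agr2, Tff2, Clca1 and Muc16 are themselves among the 305, so these percentages are a description and not a comparison with separate genes.

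**Figure D4:**
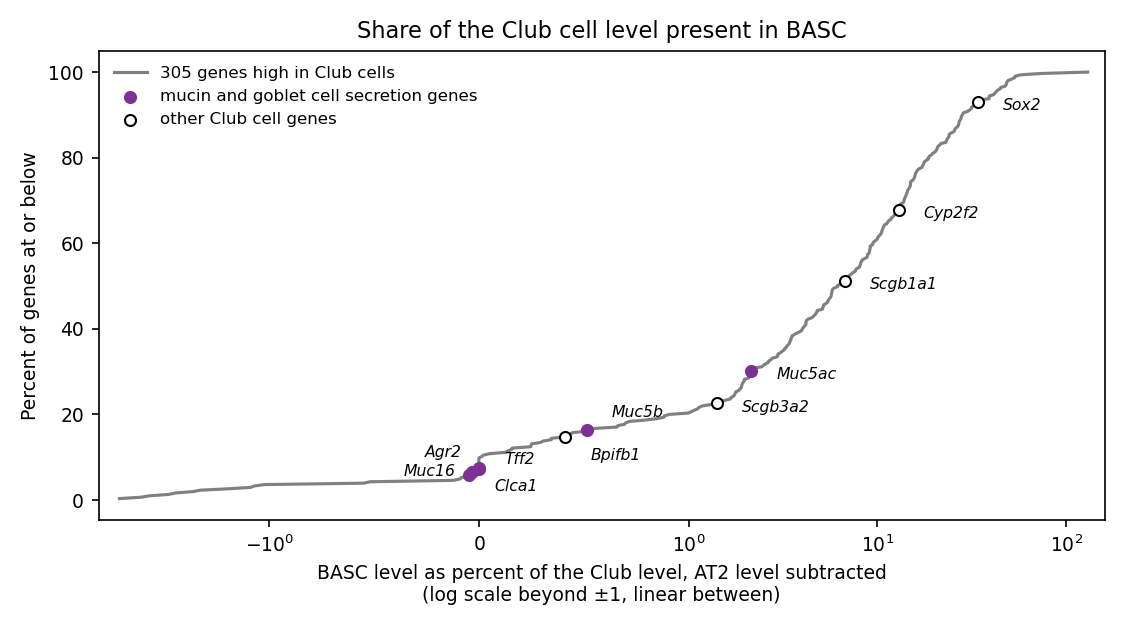
The curve gives, for 305 genes high in Club cells, the cumulative percentage of genes at or below a given BASC level, which is expressed as percent of the Club level after subtraction of the AT2 level (axis logarithmic beyond 1 and linear between). Muc5b at 0.514% and Muc5ac at 2.14% lie under the median of 6.16%, and Agr2, Tff2, Clca1 and Muc16 lie at or next to 0. These genes are themselves among the 305.

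Promoter sequence is shown for Muc1, Muc16 and Agr2, the 3 members with an entry in the RefSeq promoter table (GRCm38.p6), because they include the gene active in all populations and 2 genes found in Club cells alone. Each run is the 250 bases before the RefSeq start, 5′ to 3′ on the gene strand, at chr3:89228806-89229055 for Muc1, chr9:18674604-18674853 for Muc16 and chr12:35992675-35992924 for Agr2. Capitals mark matches to the motifs searched.
Muc1 promoter: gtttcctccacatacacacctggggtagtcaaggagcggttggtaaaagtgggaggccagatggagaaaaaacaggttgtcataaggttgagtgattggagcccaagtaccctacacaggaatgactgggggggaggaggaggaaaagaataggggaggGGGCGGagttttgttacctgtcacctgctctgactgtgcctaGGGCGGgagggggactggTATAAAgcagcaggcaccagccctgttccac
Muc16 promoter: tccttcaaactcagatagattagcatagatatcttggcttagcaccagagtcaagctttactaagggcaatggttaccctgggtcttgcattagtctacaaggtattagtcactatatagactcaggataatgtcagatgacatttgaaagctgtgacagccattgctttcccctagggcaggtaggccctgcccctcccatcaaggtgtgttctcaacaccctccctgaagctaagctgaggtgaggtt
Agr2 promoter: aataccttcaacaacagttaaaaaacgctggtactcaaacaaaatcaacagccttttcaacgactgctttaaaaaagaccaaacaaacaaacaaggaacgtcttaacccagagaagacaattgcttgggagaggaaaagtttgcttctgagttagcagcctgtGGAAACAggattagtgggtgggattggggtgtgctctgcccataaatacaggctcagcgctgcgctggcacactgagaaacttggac
Motifs were searched on both strands. The letters TATAAA stood for the TATA box and the letters GGGCGG for the GC box that binds Sp1. Those for forkhead factors such as Foxa2 were TGTTTNC, and those for the lung factor Nkx2-1 were CTCAAG. For ETS factors in general the core searched was CCGGAA, and no letters particular to Spdef were searched. For Xbp1 and the Creb family the core was TGACGT, beside the STAT6 consensus. No 2 of the matches overlapped. The Muc1 window held TATAAA at -31 to -26 and GGGCGG at -91 to -86 and -49 to -44, counted back from the start. TATAAA occurs in 12.4% and GGGCGG in 32.7% of the 32851 mouse promoter windows of the same length. The Agr2 window held TGTTTNC on the other strand at -87 to -81, a motif found in 17.8% of windows. None of the searched letters were found in the Muc16 window. GC content was 54.8% for Muc1, 46.4% for Muc16 and 44.4% for Agr2, against a median of 52.4% over all windows. A match is a description of the letters and not a measured binding site.

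Genes with the most similar profile were sought among 9897 genes by the distance between log2 profiles over the 6 samples, and the nearest are given with Pearson's r as a description. Muc1 was nearest to Arl6ip1 (distance 0.126, r = 0.986), which had 1508 and 1440 normalised counts in BASC, 1782 and 1643 in AT2 cells and 1008 and 1204 in Club cells. Muc5b was nearest to Scgb3a2 (distance 1.53, r = 0.994), with Bpifb1, an abundant secreted airway protein, and Muc5ac next. Muc5ac was nearest to Wdr72, Acpp and Aldh1a1. Wdr72 and Acpp had low values in BASC and were at 0 in AT2 cells. Aldh1a1 had the same order of populations at a higher level. Its normalised counts were 675 and 1027 in BASC, 32 and 12 in AT2 cells and 52198 and 46721 in Club cells. Agr2 had Ern2 among its nearest genes (distance 0.375), and Tff2 and Clca1 both had Fer1l6 among theirs. For the genes at or near 0 outside Club cells, the profile is mainly the contrast between the Club samples and the rest.

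Other secreted products of goblet and serous cells were mostly lower outside Club cells. Of 11 tested, 9 were called lower in BASC than in Club cells and 10 lower in AT2 than in Club cells, and 1, Pigr, was higher in BASC than in AT2 cells. The shares over all genes were 5.42%, 9.71% and 0.553%, in that order. Agr3, Itln1 and Chil4, 3 of the 11, reached a normalised count of 10 in Club cells only and so entered the fit through the population where they were high. Medians were -5.49 for BASC against Club cells (-5.39 with genes at 0 set to their bound) and 1.29 for BASC against AT2 cells. The last equals the fitted value of Agr3, which was at or under the detection limit in both populations, so it shows no shift of the list. Pigr, the receptor that carries polymeric antibodies into the secretions, had 260 and 395 normalised counts in BASC, 60 and 41 in AT2 cells and 14448 and 14409 in Club cells. BASC stood 6.49-fold above AT2 cells (limma adjusted p = 0.0103) and 44.1-fold below Club cells (limma adjusted p = 4.77e-05). The first of these calls was lost without the first BASC sample (limma adjusted p = 0.0878), the second BASC sample (0.206) or the second AT2 sample (0.0516), and without either Club sample in the fixed gene set (0.231 and 0.235); the other was kept in each case. Bpifb1 had 151 and 23 in BASC, 1 and 2 in AT2 cells and 22921 and 18573 in Club cells, 238-fold lower in BASC than in Club cells (limma adjusted p = 0.000931, but 0.103 and 0.092 without the first or second Club sample in the fixed gene set). Bpifa1, its relative, had 480 and 21 in BASC, 1 and 5 in AT2 cells and 64511 and 25250 in Club cells, so the first BASC sample held most of the BASC level of both genes, which was not so for Muc5b or Muc5ac. Fcgbp, a goblet cell protein that binds mucus, had 76 and 141 in BASC, 146 and 60 in AT2 cells and 4087 and 4734 in Club cells (limma adjusted p = 0.000547 for BASC against Club cells, but 0.0632 and 0.0684 without the first or second Club sample in the fixed gene set). Agr3, the relative of Agr2, had 1 and 2 in BASC, 0 and 0 in AT2 cells and 92 and 38 in Club cells (limma adjusted p = 0.0385 for BASC against Club cells, but between 0.0513 and 0.0922 without either BASC or either AT2 sample).

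Transcription factors of the goblet cell programme were called in both directions. Of the 17 in the fit, limma called 2 higher in BASC than in AT2 cells, and 2 higher and 2 lower in BASC than in Club cells, with medians of 0.35 and -0.40. The same shares over all genes were 0.553%, 5.77% and 5.42%. In AT2 against Club cells 1 was higher and 8 lower, beside 8.42% and 9.71% of all genes, with a median of -0.75. Sox2, a factor of the conducting airway, had 438 and 343 normalised counts in BASC, 0 and 0 in AT2 cells and 1161 and 1132 in Club cells, at least 142-fold higher in BASC than in AT2 cells (limma adjusted p = 0.000934). Creb3l1, a membrane-bound factor of the secretory pathway, had 1649 and 1669 in BASC, 799 and 635 in AT2 cells and 1625 and 1630 in Club cells. BASC lay 2.31-fold above AT2 cells (limma adjusted p = 0.0272), and no call was made between BASC and Club cells (log2 difference 0.03 ± 0.16 SE, limma adjusted p = 0.944). Both calls against AT2 cells were lost without the first or second BASC sample (limma adjusted p = 0.073 and 0.0661 for Sox2, 0.182 and 0.251 for Creb3l1), and that of Creb3l1 also without the second AT2 sample (0.0782). In the fixed gene set both were lost without either Club sample (0.231 and 0.235 for each gene). Spdef, which drives goblet cell differentiation, had 59 and 97 in BASC, 8 and 20 in AT2 cells and 226 and 194 in Club cells. The BASC values lay between the others and were not called apart from either (limma adjusted p = 0.19 against AT2 and 0.258 against Club cells), while AT2 cells were 15.0-fold lower than Club cells (limma adjusted p = 0.00853, but 0.0731 and 0.0525 without the first or second Club sample, and 0.152 and 0.133 in the fixed gene set). Foxa2, which restrains mucin expression in the lung, had 1847 and 1875 in BASC, 1667 and 1565 in AT2 cells and 1127 and 1409 in Club cells (limma adjusted p = 0.062 for BASC against Club cells). Nkx2-1, the lung lineage factor, was 2.27-fold higher in BASC than in Club cells (limma adjusted p = 0.000656), and Runx1 1.88-fold lower (limma adjusted p = 0.00345, but 0.0604 without the second Club sample in the fixed gene set).

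Receptors and kinases that induce mucins were called in both directions. Of 21 tested, 3 were higher and 4 lower in BASC than in Club cells, beside 5.77% and 5.42% of all genes. Between BASC and AT2 cells 0 of the 21 were called by limma, with 4 higher and 1 lower at an unadjusted p under 0.05. Medians were 0.05 for BASC against AT2 and -0.08 for BASC against Club cells. Il13ra1, a chain of the receptor for interleukin-13, had 571 and 540 normalised counts in BASC, 369 and 261 in AT2 cells and 2855 and 2292 in Club cells, 4.63-fold lower in BASC than in Club cells (limma adjusted p = 0.00123). Notch2, whose signal sets the secretory fate of airway cells, was 1.99-fold lower in BASC than in Club cells (limma adjusted p = 0.00295). Adora2b, an adenosine receptor, had 565 and 495 in BASC, 706 and 626 in AT2 cells and 125 and 88 in Club cells, 4.98-fold higher in BASC than in Club cells (limma adjusted p = 0.00233). In the fixed gene set the call of Il13ra1 was lost without the first Club sample (limma adjusted p = 0.0605) and that of Notch2 without the first or the second (0.0969 and 0.0839), while Adora2b stayed called with any 1 sample left out.

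Enzymes that add and extend mucin O-glycans were called in both directions in BASC against Club cells, with 19 of 26 not called. Of the 26 tested, 2 were higher and 5 lower in BASC, where 5.77% of all genes were called higher and 5.42% lower. Galnt6, Galnt10, Gcnt1 and B3gnt7 reached 10 in Club cells only and so entered the fit through the population where they were high. Between BASC and AT2 cells 0 were called by limma, with 2 higher and 3 lower at an unadjusted p under 0.05. Medians were -0.36 for BASC against Club cells and 0.00 for BASC against AT2 cells. Galnt6, which starts O-glycan chains, was at 0 in BASC and AT2 cells and had 125 and 116 normalised counts in Club cells, at least 35.6-fold lower in BASC (limma adjusted p = 0.00647). Galnt7, which extends the first sugars, was 6.35-fold lower in BASC than in Club cells (limma adjusted p = 0.0151, but 0.0682 without the second BASC sample and 0.0935 without the first Club sample, or 0.243 and 0.193 without either Club sample in the fixed gene set). Gcnt1, which branches the chains, was at 0 in BASC and AT2 cells, against 145 and 51 in Club cells (limma adjusted p = 0.0117, and 0.0502 without the second BASC sample). The sialyltransferase St3gal1, with 2229 and 1980 in BASC, 2964 and 3059 in AT2 cells and 592 and 695 in Club cells, went the other way, 3.27-fold higher in BASC than in Club cells (limma adjusted p = 0.000535). St6galnac2, another sialyltransferase, had 1235 and 1569 in BASC, 910 and 1388 in AT2 cells and 40 and 9 in Club cells (57.2-fold higher in BASC than in Club cells, limma adjusted p = 0.00116). Its value is uncertain because 2 genes carry this symbol and share 383 exon bases.

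Genes of granule exocytosis included 5 of 30 tested that were higher and 2 that were lower in BASC than in Club cells. The shares over all genes were 5.77% higher and 5.42% lower. Between BASC and AT2 cells 0 of the 30 were called by limma, with 4 higher and 5 lower at an unadjusted p under 0.05. Medians of the list were 0.28 for BASC against Club and -0.16 for BASC against AT2 cells. Rab27a and Rab27b, small GTPases of secretory granules and lysosome-related organelles, were 3.21-fold and 4.50-fold higher in BASC than in Club cells (limma adjusted p = 0.00103 and 0.000717; for Rab27a 0.0601 without the second Club sample in the fixed gene set). Scin, a protein that severs actin, had 0 and 0 normalised counts in BASC, 0 and 1 in AT2 cells and 221 and 239 in Club cells, at least 68.0-fold lower in BASC than in Club cells (limma adjusted p = 0.00441). It reached 10 in Club cells only and so entered the fit through the population where it was high. Pclo, a presynaptic scaffold protein, was 2.32-fold lower in BASC than in Club cells (limma adjusted p = 0.0157), a call lost without any 1 of the BASC or Club samples.

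Folding and stress genes of the endoplasmic reticulum were nearly all without a call. Of 27 tested, 1 was higher and 1 lower in BASC than in Club cells, beside 5.77% and 5.42% of all genes. Between BASC and AT2 cells 0 of the 27 were called, with 0 also at an unadjusted p under 0.05 by limma. Medians were -0.18 for BASC against Club cells and -0.04 for BASC against AT2 cells. The lower gene was Ern2, the stress sensor IRE1 beta of mucus-secreting cells, with 0 in BASC and AT2 cells and 248 and 292 normalised counts in Club cells, at least 79.8-fold lower in BASC (limma adjusted p = 0.00337). The higher one was Edem1, which takes part in the disposal of misfolded proteins (2.16-fold, limma adjusted p = 0.00533, but 0.0628 and 0.0579 without the first or second Club sample in the fixed gene set). Agr2, the mucin-folding enzyme of the 7 genes, was like Ern2 at 0 in BASC and AT2 cells. Both reached a normalised count of 10 in Club cells only and so entered the fit through the population where they were high. Their likeness is thus a description.

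Channels and transporters that hydrate mucus were called in both directions, 2 higher and 6 lower of 14 tested in BASC against Club cells, with a median of -1.83. The shares over all genes there were 5.77% higher and 5.42% lower. Aqp4 and Kcne3, both of this list, reached a normalised count of 10 in Club cells only and so entered the fit through the population where they were high. Ano1, the calcium-activated chloride channel, had 197 and 169 normalised counts in BASC, 325 and 293 in AT2 cells and 2634 and 2215 in Club cells, 13.2-fold lower in BASC than in Club cells (limma adjusted p = 7.61e-05). Slc26a9, a chloride transporter, had 5722 and 5913 in BASC, 5682 and 5453 in AT2 cells and 619 and 687 in Club cells, 8.91-fold higher in BASC than in Club cells (limma adjusted p = 1.52e-05). Cftr, the chloride channel lost in cystic fibrosis, was 3.05-fold higher in BASC than in Club cells (limma adjusted p = 0.0141, but 0.0928 and 0.102 without the first or second BASC sample, and 0.0777 and 0.179 without either Club sample in the fixed gene set). Scnn1b, a subunit of the epithelial sodium channel, had 618 and 821 in BASC, 200 and 292 in AT2 cells and 5858 and 6075 in Club cells. It was the 1 gene of the list called between BASC and AT2 cells, 2.92-fold higher in BASC (limma adjusted p = 0.0414; median of the list 0.16), and was 8.29-fold lower than in Club cells (limma adjusted p = 0.00028). The call against AT2 cells was lost without either BASC sample or either AT2 sample (limma adjusted p between 0.0539 and 0.272), or without either Club sample in the fixed gene set (0.27 and 0.273). Scnn1g, another subunit, was 16.5-fold lower in BASC than in Club cells (limma adjusted p = 0.000155), and the water channel Aqp4 had 0 and 3 in BASC, 0 and 0 in AT2 cells and 1052 and 867 in Club cells (limma adjusted p = 0.00315 for BASC against Club cells, but 0.0535 and 0.0507 without the first or second Club sample in the fixed gene set).

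Partners of transmembrane mucins, such as the proteins that tie them to actin, shed them or bind their sugars, included 5 of 14 higher and 2 lower in BASC than in Club cells, with a median of 0.42. The shares over all genes were 5.77% and 5.42%. None of the partners were called between BASC and AT2 cells by limma, 0 of 14, with 1 higher and 2 lower at an unadjusted p under 0.05 and a median of -0.11. Lgals9, a galectin, was 3.06-fold higher in BASC than in Club cells (limma adjusted p = 0.0105). Lgals3, a galectin known from human epithelium to crosslink transmembrane mucins, had 76 and 80 normalised counts in BASC, 139 and 224 in AT2 cells and 342 and 252 in Club cells, 3.81-fold lower in BASC than in Club cells (limma adjusted p = 0.0261). Both calls were lost without the first or second BASC sample (limma adjusted p = 0.0522 and 0.0777 for Lgals9, 0.0896 in both cases for Lgals3), and that of Lgals3 also without either Club sample (0.242 and 0.098). In the fixed gene set that of Lgals9 was lost without either Club sample too (0.0865 and 0.131). Over all 168 tested genes of these lists, 4 were higher and 0 lower in BASC than in AT2 cells, 20 higher and 32 lower in BASC than in Club cells, and 27 higher and 49 lower in AT2 than in Club cells. These shares stand beside the 0.553% higher and 0.079% lower, the 5.77% and 5.42%, and the 8.42% and 9.71% of all genes given above. At an unadjusted p under 0.05, 27 of the 168 were higher and 13 lower in BASC than in AT2 cells. The same counts over the 17721 genes tested were 1257 and 1079. Genes that passed the filter through the Club samples alone are among those called lower than in Club cells.

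**Figure D5:**
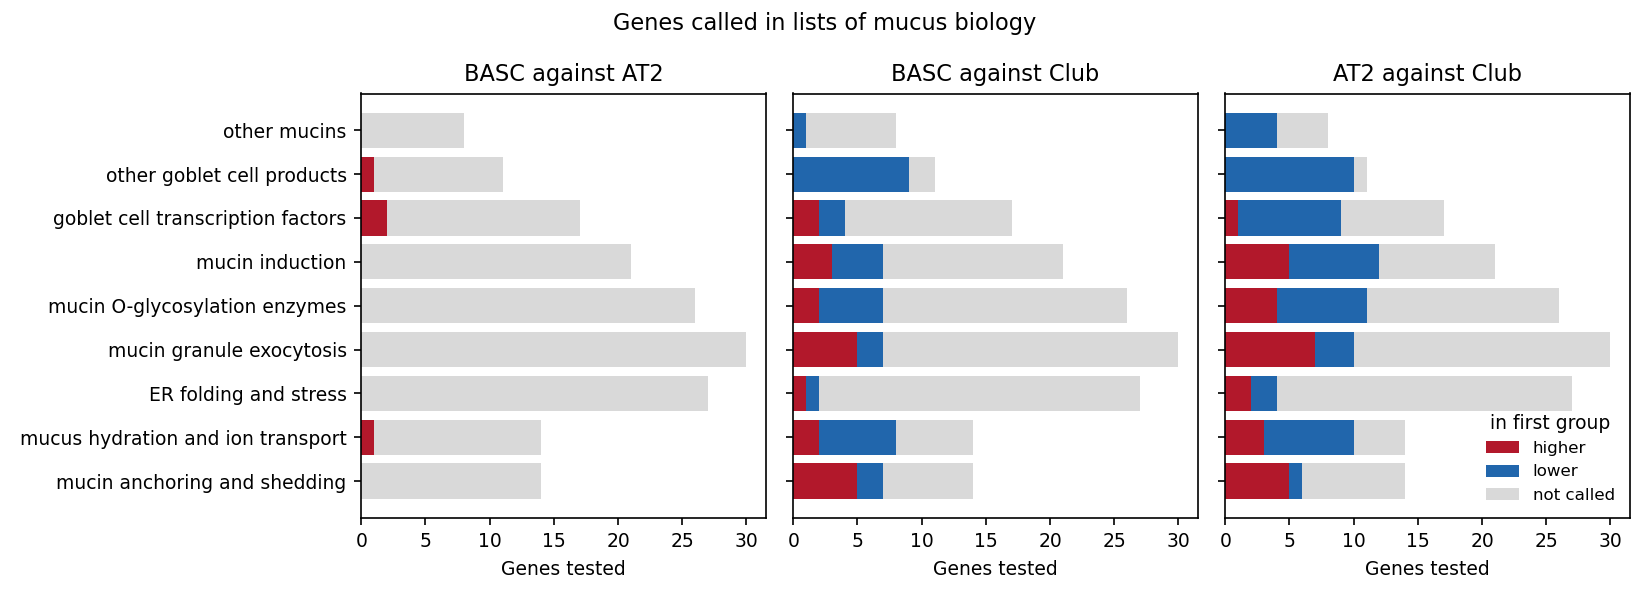
Bars count the tested genes of each list that limma called higher (red), lower (blue) or not (grey) in BASC against AT2, BASC against Club and AT2 against Club cells, at an adjusted p under 0.05. Lower calls fill 9 of 11 other goblet cell products in BASC against Club cells, while 1 of 27 genes of endoplasmic reticulum folding and stress is lower there. The share of all genes called lower in that comparison is 5.42%.

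Some markers of other cell types, those of ciliated cells and the mesothelial gene Msln among them, moved with the same contrast, and others did not. All 10 listed ciliated cell genes were above the detection limit in Club cells, 8 in BASC and 7 in AT2 cells, and their summed normalised counts were 1091 and 874 in BASC, 804 and 787 in AT2 cells and 7942 and 7730 in Club cells. Foxj1, the master factor of motile cilia, had 115 and 100 in BASC, 96 and 40 in AT2 cells and 795 and 825 in Club cells, and Sntn was at 0 in BASC and AT2 cells. Of 6 mesothelial markers 2 were measured, and Msln, which encodes the protein that binds Muc16, had 1 and 2 in BASC, 0 and 0 in AT2 cells and 379 and 182 in Club cells. Like Muc16, Msln was higher in the first Club sample than in the second, and so was the Club cell gene Scgb3a1 (49424 and 26263). The other mesothelial marker measured, Upk1b, was low, with 3 and 0 in BASC, 0 and 0 in AT2 cells and 13 and 6 in Club cells. Upk3b, Wt1, Lrrn4 and Calb2 were not measured. The 3 basal cell markers measured summed to 16 and 0 in BASC, 2 and 0 in AT2 cells and 59 and 8 in Club cells. By contrast, 8 alveolar type 1 markers summed to 14479 and 14869 in BASC, 13863 and 15485 in AT2 cells and 6634 and 7771 in Club cells. In BASC and AT2 cells that sum was mostly Ager and Emp2, both called higher in BASC than in Club cells by limma. Pdpn was called lower, with 0 and 0 in BASC, 6 and 17 in AT2 cells and 561 and 457 in Club cells. Hopx, Clic5 and Igfbp2 also had their highest values in Club cells, whereas Rtkn2 and Cav1 did not. The 5 neuroendocrine and tuft cell markers measured summed to 285 and 346 in BASC, 319 and 374 in AT2 cells and 134 and 138 in Club cells, and 6 of fibroblasts and smooth muscle to 39 and 13 in BASC, 240 and 13 in AT2 cells and 55 and 104 in Club cells. Dclk1 made up most of the neuroendocrine and tuft cell sum in every sample. Of 9 immune markers 3 were measured, and Ptprc was not among them. Every gene measured in these data reached at least 7 in some sample. The sum of the 3 immune markers was almost all Lyz2, which AT2 cells also express, with 254508 and 262419 in BASC, 178232 and 179734 in AT2 cells and 2179 and 990 in Club cells. The 4 endothelial markers measured summed to 75 and 98 in BASC, 75 and 82 in AT2 cells and 74 and 54 in Club cells. Among them Vwf had 15 and 2 in BASC, 0 and 0 in AT2 cells and 63 and 32 in Club cells, whereas Pecam1, Tek and Egfl7 were lowest in Club cells. The part of these cell types in the mucin levels was not tested.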

How the data were processed

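RNA from 6 sorted samples (BASC, AT2 and Club cells, 2 each) was sequenced from 100 pg of total RNA with the SMARTer Stranded Total RNA-Seq Pico Input kit, per the labels' protocols. The submitters' processing notes name FastQC, STAR 2.4.0a, featureCounts 1.4.5-p1 and the mm10/GRCm38 build. What strand setting, annotation release and normalization method were used is not given in the sources used here. As deposited by the authors, values are a signal, namely whole-number normalised read counts; the even steps of the low values show 1 scaling factor per sample, read from the values and stated in no label. They are not raw counts, so no count model was fitted.

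From these values, limma 3.58.1 (R 4.3.3) was fitted to log2(value + 1) over all 6 samples, with a trended prior and Benjamini-Hochberg adjustment over the 17721 genes that reached 10 in 2 or more samples. The fit had 3 residual and 4.20 prior degrees of freedom, with 2 samples per group. Tests are two-sided. The step width of each column gave the value of 1 read (0.7635 to 1.34) and hence estimated library sizes, detection limits and counting intervals, which cover counting error only. A gene at 0 is set against 3 reads per library, averaged over the group. Exon lengths came from the GENCODE release M21 gene models, with no exon of the 7 genes shared with another gene, and promoters from RefSeq. The fit was tested on simulated data.

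The 7 genes, the lists and the tests were chosen with earlier results of these data known. From each list, up to 4 called genes per comparison with the largest fitted change and a higher-group mean of 100 or more could be named, and the 3 nearest profiles per member. Agr3, Cftr, Fcgbp, Foxa2, Gcnt1, Muc2, Muc6, Notch2, Slc26a9 and St3gal1 were named after their values were seen. The lists held 207 genes, of which 182 were measured and 168 tested. Alternatives were other pseudocounts, filters, scalings, priors and gene sets, a replicate block, fits of 4 samples and leaving out each sample.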

Additional observations from a re-analysis of the deposited data

How the results depend on the processing

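Over 18 log2 fold changes of the 7 genes and their 324 alternative fits, 295 kept their direction and side of the threshold, 22 lost a call, 7 gained one and 0 reversed. With a pseudocount of 10, 1 member was called higher in BASC than in AT2 cells and 40 genes lower, and 1 member was higher in BASC than in Club cells. In fits of only the 4 samples compared, 0 members, 0 listed genes and 0 genes were called higher and 0 lower in BASC against AT2 cells by limma, where 927 and 917 genes had an unadjusted p under 0.05. At a filter of 50, BASC against AT2 cells gave 9 listed genes higher, 2 lower, and 204 genes higher and 61 lower; with protein-coding genes only, 7 listed genes higher, 153 genes higher and 35 lower. Without a variance trend, BASC against AT2 cells gave 1 listed gene higher and 34 genes lower, BASC against Club cells 8 listed genes higher, 21 listed lower and 499 genes higher, and AT2 against Club cells 0 members, 13 listed genes and 849 genes higher. With no filter, the filter of 50, quantile or median-ratio scaling or protein-coding genes only, 1 member, Muc1, was higher in BASC than in Club cells. Scaling to the total outside ribosomal RNA and mitochondrial genes moved the median of all genes to -0.19 in BASC against Club and -0.25 in AT2 against Club cells, from -0.10 in both; Muc1 then stood at 0.31 (limma adjusted p = 0.119) and 0.54 (0.0128). The reason for these shifts was not tested.

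Leaving out 1 sample gave, in BASC against AT2 cells, 0 to 1 members, 0 to 5 listed genes and 3 to 100 genes higher, and 0 to 27 genes lower. In BASC against Club cells it gave 0 to 1 members, 12 to 20 listed genes and 480 to 913 genes higher, and 1 to 6 members, 15 to 36 listed genes and 196 to 975 genes lower. In AT2 against Club cells it gave 18 to 30 listed genes and 902 to 1459 genes higher, and 2 to 6 members, 27 to 50 listed genes and 574 to 1832 genes lower. Of the genes named from the lists, 0 of 4 calls in BASC against AT2 cells, 22 of 30 in BASC against Club cells and 31 of 33 in AT2 against Club cells were kept with any 1 sample left out; counting also the fixed gene set below, these were 0, 13 and 23. None of these genes reversed in any alternative. Without a Club sample only Muc1, Muc5ac and Muc5b pass the filter. In an alternative added after seeing the data, which kept the genes tested (the fixed gene set), all 6 lower members stayed called in AT2 against Club cells, and in BASC against Club cells all but Muc5ac (limma adjusted p = 0.103 and 0.109). The same setting took away both members called higher in BASC than in AT2 cells, Muc5b (limma adjusted p = 0.231 and 0.235) and Muc5ac (0.249 and 0.255), and, without the first Club sample, Muc1 in AT2 against Club cells (0.0753). There the lone Club sample is assumed to vary like the other groups.

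Correlations of replicate differences between populations were 0.006, 0.00846 and 0.01184, so no pairing by replicate number was seen. They cover all genes tested, low ones with large counting error included. They therefore cannot decide whether samples with the same number shared an animal or a sort. With a replicate block, 1 member was higher in BASC than in AT2 cells, since Muc5ac reached a limma adjusted p of 0.0609, and counts of higher and lower genes were 102 and 18 there, 1004 and 857 in BASC against Club cells, and 1453 and 1592 in AT2 against Club cells. Depth limits Agr2, Tff2 and Muc16 in BASC and AT2 cells, where levels under 3 reads were not detectable, and 2 samples per population limit every test.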
